A study of Schizosaccharomyces pombe with 8 samples.

Results

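The genes described here are 10 nucleolar ribosome assembly factors of the fission yeast Schizosaccharomyces pombe: fib1 (SPBC2D10.10c), nop56 (SPBC646.10c), nop58 (SPAC23G3.06), cbf5 (SPAC29A4.04c), gar2 (SPAC140.02), mis3 (SPBC25B2.05), nop2 (SPBP8B7.20c), mak16 (SPAC222.06), ebp2 (SPAC17H9.05) and rrp14 (SPBC947.07). They were looked up by gene ID among the 5129 genes listed in each of 2 tables, and all 10 were found in both. They had been selected on values of the authors' comparisons between groups, with earlier results of these data known. Genes with higher counts pass such comparisons more readily, so the levels given here are not independent of that choice and are given as a description, with no test.

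The nucleolus is the part of the nucleus where RNA polymerase I transcribes the ribosomal RNA (rRNA) precursor and where that precursor is modified, cut and bound by ribosomal proteins. Small nucleolar ribonucleoproteins (snoRNPs) are complexes of a guide RNA and proteins. Box C/D snoRNPs methylate riboses of rRNA and box H/ACA snoRNPs turn uridines into pseudouridines. Other assembly factors bind the precursor of the small (40S) or large (60S) subunit for a time and are then released. In yeasts, genes of ribosome biogenesis and of ribosomal proteins are known to change together with growth conditions.

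The study sequenced poly(A)-selected RNA in 8 libraries from yeast cultures grown overnight in a rich medium with yeast extract and glucose, with 2 libraries in each of 4 groups. The group labelled WT carries no mutation named in the labels, and the group labelled seb1-1 carries a viable allele of seb1, which encodes a partner of RNA polymerase II that binds nascent RNA. The group labelled epe1KO lacks, by its label, epe1, the gene of an anti-silencing factor. The group labelled epe1KO_tfs1DN carries that deletion too and, inserted at leu1, a dominant-negative tfs1 under the thiamine-repressible nmt1 promoter. The gene tfs1 encodes TFIIS, an elongation factor that restarts paused polymerase, and the study grew the cells carrying tfs1DN with thiamine, which keeps the promoter low. By the study's methods, the RNA of epe1KO_tfs1DN came from 1 isolate, which had gained a region of heterochromatin, so that group stands for 1 clone. The labels give the same replicate numbers in each group and do not say whether a group's libraries came from separate cultures.

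In each table the authors give 1 mean per gene over the 4 libraries of a pair of groups. One table covers WT and seb1-1 and is called the WT/seb1-1 pair here. The other covers epe1KO and epe1KO_tfs1DN and is called the epe1KO-labelled pair. Every level below is the authors' mean in normalized counts, that is, read counts divided by a scaling factor for each library. There is no value for a single library, no spread between replicates and no depth per library. Summed over all genes, the means come to 22456953 in the former table and 15644260 in the latter. The gene epe1 itself was listed at 706 normalized counts in the epe1KO-labelled pair and at 712 in the WT/seb1-1 pair, which goes against the label of a deletion. The extent of the deletion was not found in the labels, so the libraries are named by their label throughout.

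The members fell into 2 ranges of level that did not overlap. The 4 snoRNP proteins and the nucleolin gar2 had means between 8416 and 19289 normalized counts in the WT/seb1-1 pair and between 7416 and 14255 in the epe1KO-labelled pair. The other 5 members, which act in assembly of the subunits, had means between 345 and 1903 and between 522 and 2939. By role gar2 could stand with either set, and it was placed with the snoRNP proteins by its level. This split holds for these 10 genes and not for every gene of these kinds. In the WT/seb1-1 pair tif6, a 60S assembly gene outside the 10, had a mean of 8997 normalized counts. The snoRNP gene nop10, also outside them, had a mean of 783 there. To compare genes, each mean was divided by the length in kilobases of the annotated transcript without introns. On this scale the median of the 5 high members was 13.2 times that of the 5 assembly factors in the WT/seb1-1 pair and 5.81 times in the epe1KO-labelled pair. By coding length these ratios were 7.81 and 4.82. Since the grouping used the levels, the ratios describe the split and are no test of it. The 10 members together made up 0.318% of all listed means in the WT/seb1-1 pair and 0.372% in the other.

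**Figure D1:**
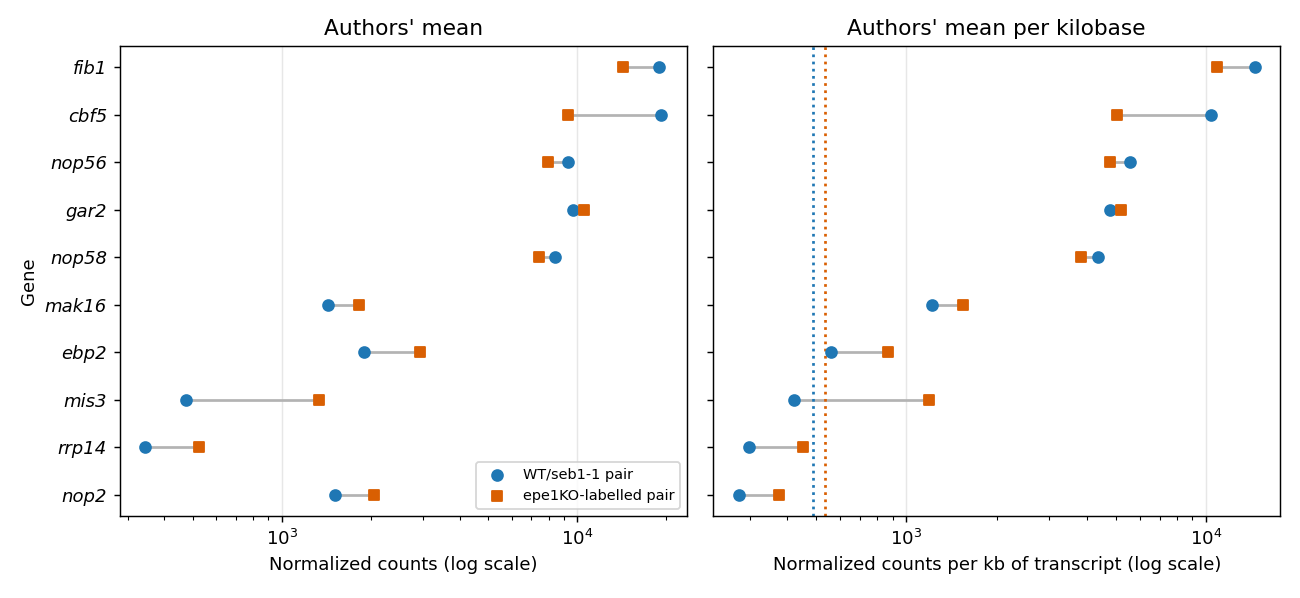
The authors' mean of each member in normalized counts (left) and per kilobase of transcript (right), both on log axes, with circles for the WT/seb1-1 pair and squares for the epe1KO-labelled pair; dotted lines on the right mark the median of all listed genes of each pair, and there are no error bars because each point is 1 pooled mean. In both pairs fib1, cbf5, nop56, gar2 and nop58 lie above every assembly factor, and the squares of mis3 and cbf5 lie farthest from their circles.

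The 3 members that belong to the box C/D snoRNP had high levels in both pairs. Fibrillarin, encoded by fib1, is the methyltransferase of the complex and had a mean of 18989 normalized counts in the WT/seb1-1 pair and of 14255 in the epe1KO-labelled pair. Its level per kilobase, 14528 and 10907 normalized counts, was the highest of the 10 members in both pairs and stood at percentile 95.7 and 95.4 of the listed genes with a mean above 0. The scaffold proteins Nop56 and Nop58 hold fibrillarin on the guide RNA. The mean of nop56 was 9322 and 7964 normalized counts, or 5578 and 4766 per kilobase. The mean of nop58 was 8416 and 7416, or 4352 and 3834 per kilobase. Both stood between percentile 90.4 and 92.6 of all genes by level per kilobase. The mean of nop56 was 1.17 times and that of nop58 1.13 times as high in the WT/seb1-1 pair as in the epe1KO-labelled pair. These 2 ratios were close, with no spread to judge them by. The ratio was 1.33 for fib1, and snu13 of the same complex, given below, was higher in the epe1KO-labelled pair.

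The pseudouridine synthase of the box H/ACA snoRNP is encoded by cbf5. Its mean was 19289 normalized counts in the WT/seb1-1 pair, the highest undivided mean of the 10 members, and 9328 in the epe1KO-labelled pair. The listed mean was thus 2.07 times as high in the former. Per kilobase, cbf5 had 10421 and 5040 normalized counts, at percentile 94.8 and 92.3. Nucleolin, encoded by gar2, is an RNA-binding protein of the nucleolus that is needed for normal levels of the small subunit. The mean of gar2 was 9679 and 10590 normalized counts, and it was the only one of the 5 high members whose listed mean was higher in the epe1KO-labelled pair. As shares of the summed means, fib1, nop56 and nop58 were higher there too, and cbf5 was lower. Between the pairs gar2 moved from the fourth to the second place of the 10 members by level per kilobase, with 4768 and 5217 normalized counts per kilobase.

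Among the assembly factors, mis3 encodes the relative of budding yeast Krr1, a protein of the small subunit processome, which assembles on the rRNA precursor. Its mean was 472 normalized counts in the WT/seb1-1 pair and 1336 in the epe1KO-labelled pair, and the second value is 2.83 times the first. Its level per kilobase, 422 and 1193, stood at percentile 45.0 and 73.7 of all genes. This was the widest gap in percentile of the 10 members.

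The other 4 assembly factors act, in budding yeast or by their annotation, in making the subunits. The product of nop2 is annotated as an RNA methyltransferase, and its relative in budding yeast methylates a cytosine of the large subunit rRNA. The mean of nop2 was 1507 and 2049 normalized counts. Mak16 and Ebp2 are needed in budding yeast to make the 60S subunit. The mean of mak16 was 1435 and 1821 normalized counts and that of ebp2 was 1903 and 2939. The product of rrp14 (SPBC947.07) is annotated as the C-terminal type of the biogenesis protein Rrp14. Its mean, 345 and 522 normalized counts, was the lowest of the 10 members in both pairs. In all 4 genes the mean was higher in the epe1KO-labelled pair, between 1.27 times for mak16 and 1.54 times for ebp2.

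The name rrp14 is used for 2 genes. The reference annotation gives SPBC947.07 the symbol rrp1402, with rrp14 as a synonym, and gives the symbol rrp14 to SPAC8C9.10c, annotated as the N-terminal type. The latter is not a member, and its listed mean was 1610 and 1717 normalized counts.

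The levels of nop2, ebp2 and rrp14 per kilobase changed most with the length used. By place in the WT/seb1-1 pair, nop2 went from 10 to 8, ebp2 from 7 to 6 and mis3 from 8 to 10. There rrp14 stayed at place 9. The longest annotated transcript of nop2 has 5465 bases and a coding part of 1824, so 33.4% of it is coding. That of ebp2 has 3390 and 999 bases, of which 29.5% are coding. The coding share lay between 60.5% and 89.2% in the other 8 members. Per kilobase of transcript nop2 was the lowest member, with 276 and 375 normalized counts. Per kilobase of coding length it had 826 and 1123. On the same change of length ebp2 went from 561 and 867 to 1905 and 2942 normalized counts, and rrp14 from 299 and 452 to 493 and 747. By coding length the lowest member in the WT/seb1-1 pair was mis3, at 481 normalized counts per kilobase. The 5 high members kept the first 5 places under both lengths in that pair. Without a spread over libraries, it cannot be said which neighbours in the order differ.

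The members share few features of gene structure. Of the 10 members, 5 lie on chromosome I, 5 on chromosome II and 0 on chromosome III, which holds 17.9% of the listed genes. The annotation gives no intron in 8 of the 10, against 51.6% of listed genes. The exceptions are mak16, with 1 intron, and nop58, with 2. An annotated gene on the opposite strand overlaps 9 of the 10 members, nop58 being the exception, and 89.9% of all listed genes placed on the chromosomes have such an overlap. For 4 members the overlapping gene is itself a listed gene: spt16 for nop2, hri2 for mak16, SPAC17H9.06c for ebp2 and snr1 for fib1. Neither the labels nor the study state whether counting used strand, so the reads of these pairs of genes may not be separate.

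The levels of the pairs were then set against each other for every gene, as the log2 of the mean in the epe1KO-labelled pair minus that in the WT/seb1-1 pair. A pseudocount of 1 was added to each mean, genes with a mean of at least 10 in both tables were kept, and the median of these 4936 genes, 0.11, was subtracted. The tables were normalized separately, and the pairs differ in epe1 label, seb1 allele, tfs1DN and any difference in handling, which cannot be told apart. Each value compares 1 pooled mean with another and has no replicate check. A centred difference of 0 therefore means that a gene lay at the same place relative to the middle gene in both tables.

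Of the 10 members, 2 lay past 2-fold in this difference, 1 in each direction. The difference was 1.39 for mis3, which was higher in the epe1KO-labelled pair, and stood at percentile 97.0 of all genes. It was -1.16 for cbf5, at percentile 5.83. Of all 4936 genes, 7.29% were higher in the epe1KO-labelled pair past 2-fold and 7.92% were lower. With 1 of 10 members in each direction, the members were near this background.

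The remaining 8 differences were smaller than 2-fold. The 5 assembly factors were all above 0, with 0.51 for ebp2, 0.49 for rrp14, 0.33 for nop2 and 0.23 for mak16 beside the value of mis3. The snoRNP genes were all below 0, with -0.53 for fib1, -0.34 for nop56 and -0.29 for nop58 beside the value of cbf5, but all of them except cbf5 lay above 0 when both tables were set to equal sums. The nucleolin gene gar2 lay at 0.02. The median over the 10 members was 0.12, and over all genes it is 0 by construction. With both tables at equal sums, the median of all genes moved to 0.63, 9 of the 10 members lay above 0, the exception being cbf5 at -0.53, and 3 members lay past 2-fold: mis3 at 2.02, ebp2 at 1.15 and rrp14 at 1.12. At that scaling 81.9% of all genes lay above 0, 28.9% lay past 2-fold higher and 2.31% past 2-fold lower, so the counts of members were again near the background. There fib1, nop56 and nop58 lay above 0, between 0.11 and 0.34, and below the median of all genes. The glycolytic genes tdh1 and fba1 had the highest means of all genes, and the 5 highest genes took 13.8% of the summed means in the WT/seb1-1 pair and 7.51% in the epe1KO-labelled pair, which moves any share of the sum.

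**Figure D2:**
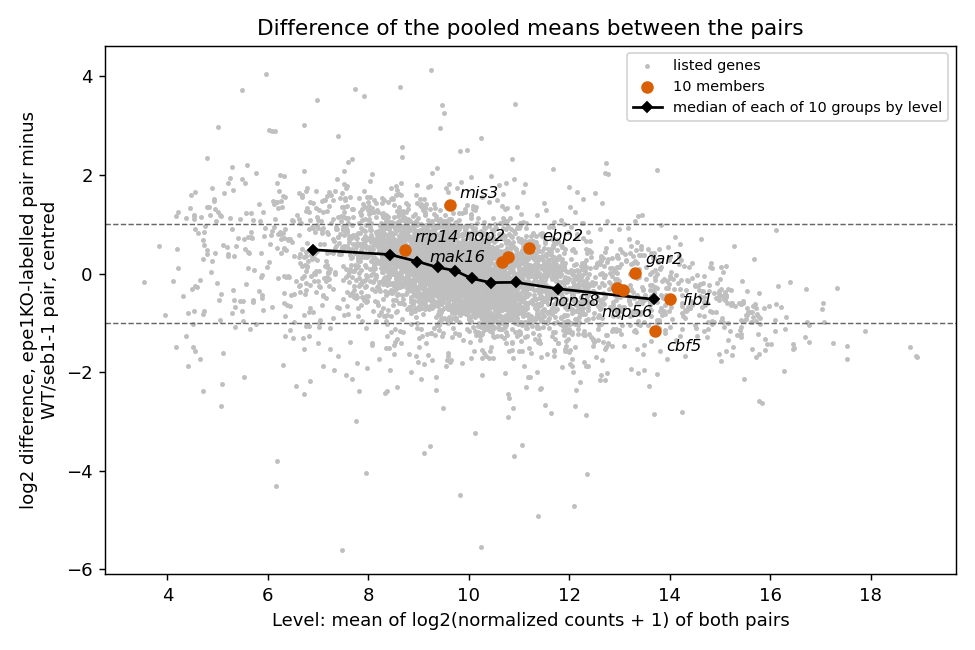
The centred log2 difference of each gene between the epe1KO-labelled pair and the WT/seb1-1 pair, against its mean log2 level in both; grey points are the listed genes that passed the filter, coloured points the 10 members, diamonds the median of each of 10 equal groups of genes by level, and dashed lines mark 2-fold. The median falls from 0.48 in the lowest group to -0.52 in the highest, and mis3 at 1.39 and cbf5 at -1.16 are the members past 2-fold.

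The difference between the pairs moved with level over the whole table. In 10 equal groups of genes ordered by their mean log2 level in both pairs, the median difference fell from 0.48 in the lowest group to -0.52 in the highest. The 5 high members were all in the highest group. Against the median of that group, gar2 lay 0.54 above, nop58 0.23 above and nop56 0.19 above. In the same comparison fib1 lay at 0.00 and cbf5 at -0.64, which is no longer past 2-fold. The assembly factor mis3 was in the fifth group and lay 1.33 above its median. The eighth group held ebp2, nop2 and mak16, which lay 0.69, 0.51 and 0.41 above its median. The second group held rrp14, which lay 0.10 above its median. Thus 8 of the 10 members were above the median of genes of their own level, and mis3 alone was past 2-fold. Such a median has as many genes above it as below it, and the share of all genes past 2-fold from it was not counted. This comparison was added after the data were seen.

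The other genes of the same complexes gave the setting for the members. Besides fib1, nop56 and nop58, the box C/D list holds snu13, a protein that binds the kink in the guide RNA. The mean of snu13 was 7079 normalized counts in the WT/seb1-1 pair and 12393 in the epe1KO-labelled pair. Its centred difference was 0.70, opposite in sign to those of its 3 partners, although all 4 lay above 0 with equal sums. In the highest group by level, where it also falls, it lay 1.22 above the median. None of the 4 genes of this list was past 2-fold in the centred difference over all genes.

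In the box H/ACA list, cbf5 differed from all 3 of its partners. The structural protein gene nhp2 had means of 4484 and 5622 normalized counts and a centred difference of 0.21. The gene gar1 had means of 3271 and 7201 and a difference of 1.03. The small protein gene nop10 had means of 783 and 2308 and a difference of 1.45. Per kilobase, cbf5 was above each of its partners in the WT/seb1-1 pair, at 10421 normalized counts against 3845 for nhp2, 3194 for gar1 and 2289 for nop10. In the epe1KO-labelled pair it was at 5040, above nhp2 at 4822 and below gar1 at 7032 and nop10 at 6749. Relative to one another, these levels within a table do not depend on how the tables were scaled. They do depend on the annotated transcript length, and the partners were not compared by coding length.

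Of 49 symbols written down for the small subunit processome and 40S assembly, 46 matched a listed gene, mis3 among them. Synonyms were not searched, so an unmatched symbol need not be a missing gene. Among the unmatched was krr1, the budding yeast name for the relative of mis3. The median difference of the 46 genes was 0.43, and 40 of them lay above 0. Past 2-fold, 8 were higher in the epe1KO-labelled pair and 0 were lower, against 7.29% and 7.92% of all genes. With equal sums 27 of the 46 were higher past 2-fold, against 28.9% of all genes. Past 2-fold in the centred difference were mis3 at 1.39, lcp5 at 1.29, imp4 at 1.25 and bfr2 at 1.25. The rest of those 8 genes were enp2 at 1.13, sof1 at 1.10, rrp36 at 1.09 and has1 at 1.03. Imp4 and Sof1 are proteins of the processome and Has1 is an RNA helicase. The highest 3 genes of this list per kilobase in the WT/seb1-1 pair, fcf2, mra1 and fal1, had differences of 0.04, 0.13 and 0.13.

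Of 58 symbols for 60S assembly, 50 matched a listed gene by symbol, with nop2, mak16 and ebp2 among them. The symbol rrp14 was matched to SPAC8C9.10c, so the member SPBC947.07 was not counted in this list. The median difference of the 50 genes was 0.22, and 32 lay above 0. Past 2-fold, 9 were higher in the epe1KO-labelled pair and 1, cgr1, was lower, against 7.29% and 7.92% of all genes. The means of cgr1 were 2727 and 1471 normalized counts. With equal sums 20 were higher and 0 were lower, against 28.9% and 2.31% of all genes. Without centring, cgr1 was not past 2-fold either. None of the 3 members was among the 9, which were nop16 at 1.73, rpf1 at 1.36, tma23 at 1.35, brx1 at 1.30, rlp7 at 1.28, sda1 at 1.23, rrs1 at 1.22, nog2 at 1.12 and rpf2 at 1.02. Rpf2 and Rrs1 bring the 5S particle into the large subunit, and Nog2 is a GTPase of its late assembly. Of the highest 3 per kilobase, tif6, cgr1 and rlp24, the differences of tif6 and rlp24 were -0.65 and -0.07.

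For RNA polymerase I, 12 of 14 symbols matched a listed gene, and these 12 genes had a median difference of 0.12. Only rrn10, which encodes a protein of an initiation factor, was past 2-fold, at 1.15. Of all genes, 7.29% were higher past 2-fold. The highest 3 per kilobase were rpa43 at 0.09, ker1 at 0.04 and rpa12 at 0.53. With equal sums 3 of the 12 genes were higher past 2-fold, against 28.9% of all genes. Against the median of genes of its own level rrn10 lay at 0.77, and 0 of the 12 were past 2-fold. The 139 ribosomal protein genes had a median level of 53869 normalized counts per kilobase in the WT/seb1-1 pair, 3.71 times that of fib1. Their median centred difference was -0.54. Past 2-fold, 25 were lower in the epe1KO-labelled pair and 2 were higher, against 7.92% and 7.29% of all genes. With equal sums the median was 0.09, below the median of all genes. At that scaling 1 gene was lower and 13 were higher past 2-fold, against 2.31% and 28.9% of all genes. The highest 3 per kilobase were rps21 at -1.43, rpl13 at -1.39 and rpl801 at -1.52, and the 2 higher genes were rps2202 at 1.02 and rpl1202 at 1.01. Many ribosomal proteins are encoded by near-identical copies, between which reads can be split, so values of single copies are uncertain. Against the medians of genes of their own level, the median of the ribosomal protein genes was -0.03, with 3 lower and 8 higher past 2-fold. The share of all genes past 2-fold was not counted for that comparison.

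**Figure D3:**
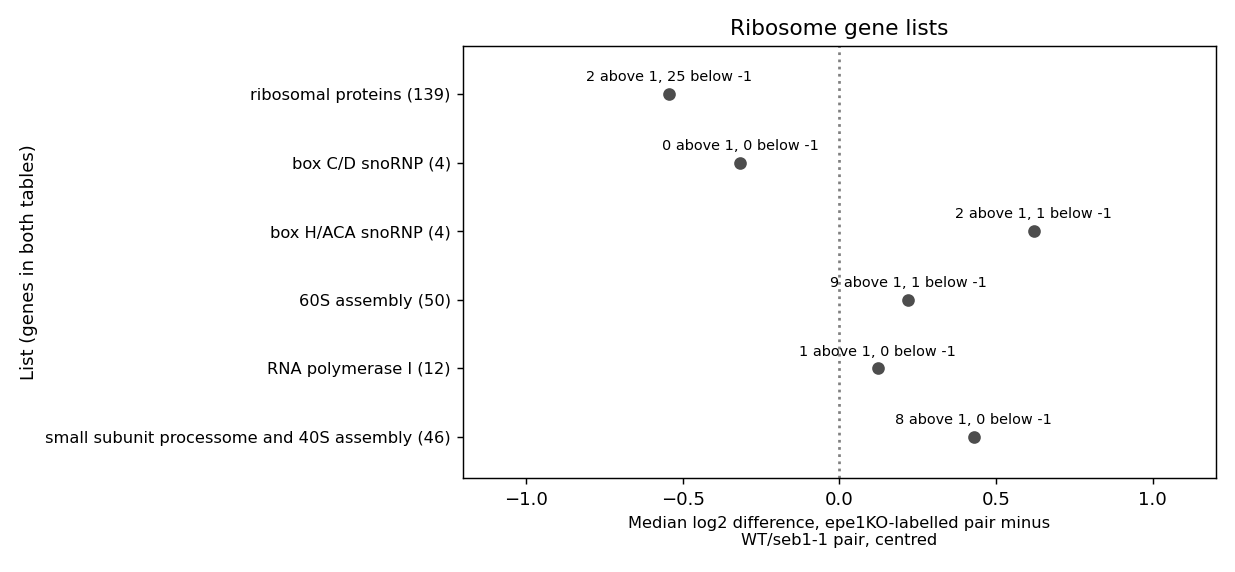
The median centred log2 difference of each list, epe1KO-labelled pair minus WT/seb1-1 pair, with the number of listed genes in brackets and the number past 2-fold in each direction above each point; no error is drawn because genes are not replicates. The processome list lies at 0.43 and the ribosomal proteins at -0.54. The box H/ACA list at 0.62 holds 2 genes above 1 and 1, cbf5, below -1. Of all genes, 7.29% lay above 1 and 7.92% below -1.

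The genes on either side of each member were read as well, in the order of the annotation. The neighbours of mis3 were mtg1, which encodes a GTPase, and btb2, which encodes an adaptor of ubiquitin ligases. The mean of mtg1 was 127 and 340 normalized counts and that of btb2 was 527 and 1226. Their differences, 1.30 and 1.11, were both past 2-fold in the same direction as that of mis3, although both lie on the other strand and neither annotated transcript overlaps mis3. Of 357 listed genes on the chromosomes that were higher past 2-fold, 6 had both neighbours past it too, and mis3 is 1 of them. At least 1 neighbour was past it for 62 of the 357. These counts were chosen after the neighbours of mis3 were seen, so they are a description and no test. The next genes outward, SPBC25B2.03 at -1.19 and mmb1 at -0.66, lay on the other side of 0. No other member had an adjacent gene past 2-fold. Beside cbf5, mrps9 lay at -0.31 and SPAC29A4.23 at 0.55, the latter from means of 10.3 and 16.9 normalized counts. Of the overlapping pairs, spt16 at -0.83 and snr1 at 0.54 had the opposite sign of nop2 and fib1, while hri2 at 0.44 and SPAC17H9.06c at 0.16 had the same sign as mak16 and ebp2.

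**Figure D4:**
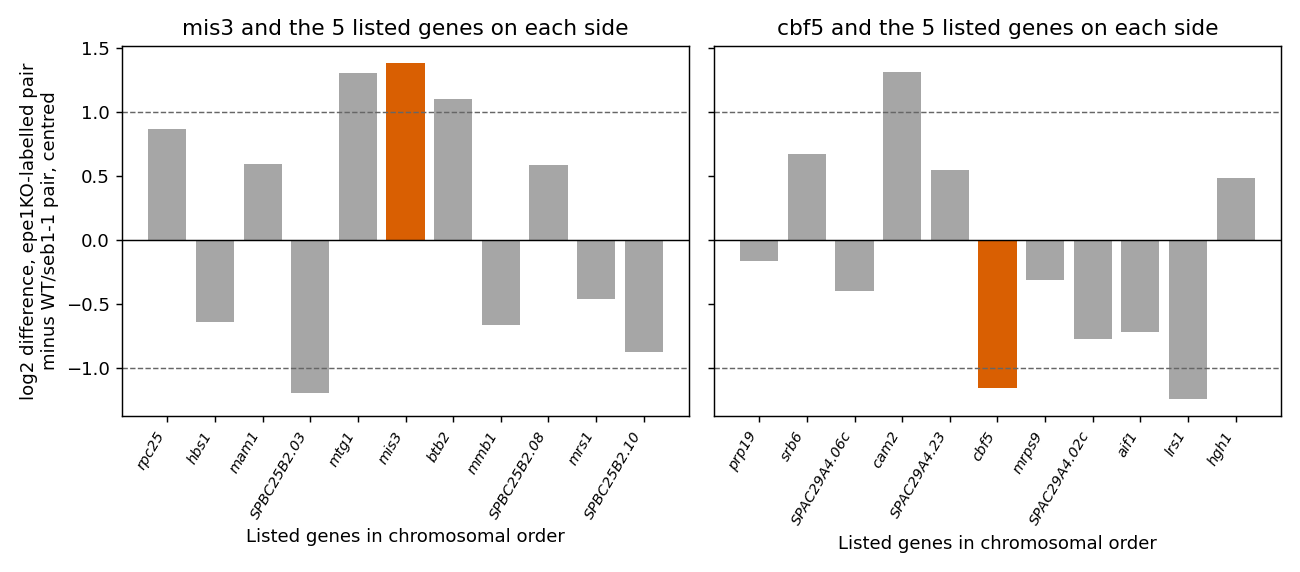
The centred log2 difference, epe1KO-labelled pair minus WT/seb1-1 pair, of mis3 and cbf5 (coloured bars) and of the 5 listed genes on each side in chromosomal order; dashed lines mark 2-fold and bars start at 0. The bars of mtg1, mis3 and btb2 stand together at 1.30, 1.39 and 1.11, while cbf5 at -1.16 stands between SPAC29A4.23 at 0.55 and mrps9 at -0.31.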

How the data were processed

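Poly(A)-selected RNA was sequenced from 4 groups of 2 libraries, with a directional kit, and aligned with TopHat by the study's methods. Per the labels, the authors used DESeq2 and genome build ASM294v2. The counting tool was not found in the labels or methods. In each table the authors deposited a signal per gene, the mean of size-factor-normalized counts over the 4 libraries of a pair of groups. The other 5 columns hold the authors' own comparison between the groups of the pair (log2 fold change, its standard error, Wald statistic, p and adjusted p) and were not used. No test and no interval between groups was therefore made.

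Of the 5129 IDs, 5111 matched the reference annotation of another assembly (ASM294v3), used only for symbols, lengths and gene order. Levels were divided by the exon length of the longest transcript. Percentiles were taken among genes with a mean above 0. Differences between tables used a pseudocount of 1, a minimum mean of 10 and centring on the median, and were checked on simulated tables. The simulated tables had a shift common to all genes and no trend with level, so they are no check of centring under that trend. The members and lists were chosen with earlier results of these data known. Named genes are all members and, of each list, the 3 highest per kilobase and those past 2-fold; of the 27 such ribosomal protein genes, only those highest per kilobase and the 2 that were higher are named. The neighbours named are the listed genes adjacent to or overlapping a member and, chosen after their values were seen, the next gene outward on each side of mis3. Python 3.11.15 with pandas 2.3.3, numpy 2.4.6 and matplotlib 3.10.9 was used.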

Additional observations from a re-analysis of the deposited data

How the results depend on the processing

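The tables hold 1 pooled mean per gene, so the depth of a library, the spread between libraries and the weight of any single library cannot be given. No paired analysis was possible because there is no value per library, and leaving out a library was not run for the same reason. The planned counts of promoter motifs and of amino acids were not run, as no sequence table was at hand. A value was taken as moved if it changed by more than 1.5 times, which for a log2 difference is a change of more than 0.58. Setting both tables to equal sums moved the median difference of the 10 members from 0.12 to 0.76, and moved the difference of each of the 10, beside a shift of 0.63 in the median of all genes. The other 6 settings were no centring, pseudocounts of 0 and 10, no filter, a minimum mean of 100 and genes of like level. Under them 60 of 60 differences of single members stayed within that limit. No centring and a change of filter shift every gene alike, and the pseudocounts matter little at these levels. Those settings could hardly have moved a member past the limit, so their part of the count is no check. The limit is also wide beside small differences. Against genes of like level, nop56 went from -0.34 to 0.19 and nop58 from -0.29 to 0.23, 2 changes of sign. In the same comparison rrp14 went from 0.49 to 0.10 and gar2 from 0.02 to 0.54. The number of members past 2-fold, 2, became 4 with a threshold of 0.5 on the log2 scale and 1 against genes of like level. The quartiles of the centred difference over all genes were -0.46 and 0.44, so a threshold of 0.5 lies close to them. Shares of all genes past 0.5, or past 2-fold against genes of like level, were not counted, so neither number is read further. Of the 10 members, 5 kept their place by level in the epe1KO-labelled pair and 4 kept it with coding length. With coding length, the level per kilobase moved for 3 members in both pairs, nop2, ebp2 and rrp14.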
